A study of Mus musculus with 10 samples.

Results

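The contacts of zinc finger genes on mouse chromosomes 7 and 13 were measured by promoter-capture Hi-C. The genes were taken by name and place: a captured HindIII fragment (a bait) was a member when it lay on chromosome 7 or 13 and held either boundary of a protein-coding gene whose symbol begins with Zfp. The rule gave 75 baits, 56 on chromosome 7 and 19 on chromosome 13, of 13024 baits with a listed contact in the series and 10010 such baits with a gene. They carry 72 of the 130 Zfp genes that the gene table places on these chromosomes, 8 of them on 2 baits. The other 58 genes had no listed bait. The rule used names and places, but only baits with a listed contact could be members, and the scores decide which contacts are listed.

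The 10 libraries came from C57BL/6 mice and form 5 groups of 2 biological replicates. The double mutant (DM) carried Npm1flox-cA/+, Flt3ITD/+ and Mx1-Cre+. The Flt3-ITD group carried Flt3ITD/+, and the Npm1c group carried Npm1flox-cA/+ with Mx1-Cre+. WT mice gave the last of the 4 groups of bone marrow lineage-negative cells, called haematopoietic stem and progenitor cells (HSPCs), and also the group of bone marrow neutrophils. Npm1c is a nucleophosmin mutation that puts the protein in the cytoplasm, the internal tandem duplication in Flt3 leaves that cytokine receptor active, and Mx1-Cre is a recombinase driven by an interferon-inducible promoter, so that it is not limited to blood cells. Lineage depletion leaves a mix of progenitors, the ages of the mice were not given, and the sources used here do not say whether mice were pooled.

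Most mouse Zfp genes encode proteins with a row of C2H2 zinc fingers, which read DNA. Many of them also have a KRAB domain, which binds Trim28 (KAP1); Trim28 in turn brings the histone methyltransferase Setdb1, which writes H3K9me3, and HP1 proteins, and the complex keeps transposable elements and some genes silent. KRAB zinc finger genes sit in tandem clusters that grew by duplication, so neighbours resemble each other in sequence. Not every Zfp gene is of this kind: Zfp36 encodes an mRNA decay protein (tristetraprolin), and Zfp143 encodes an activator of promoters.

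Each file gives 1 interaction score per library for a pair made of a bait and another HindIII fragment. The score is never negative, and nothing in the files or labels gives its scale. A pair at 5 or more in both libraries of a group is called a contact of that group here. The 8 HSPC libraries list the same 88624 pairs, each a contact in at least 1 HSPC group, and the neutrophil libraries list 25622 pairs, all contacts. Read totals were not analysed here, so library depth is unknown here. Over all listed pairs, 60.8% and 61.8% were at 5 or more in the DM libraries, 64.1% in both Flt3-ITD libraries, 51.8% and 61.5% in the Npm1c libraries, and 53.4% and 47.0% in the WT libraries. The Npm1c libraries thus stand apart from each other, and the main Npm1c values below are also given by library or without each. No RNA was measured in these libraries, so the labelled cell types could be set only against listed contacts: 9 of 15 neutrophil marker genes had a neutrophil pair and 11 had a HSPC pair, while 2 of 12 stem and progenitor, 3 of 7 erythroid, 1 of 6 B cell and 2 of 5 T cell markers had a neutrophil pair.

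The Zfp baits had 774 listed HSPC pairs and 195 listed neutrophil pairs. HSPC pairs were listed for 70 of the 75 baits and neutrophil pairs for 48, with both at 43 baits, HSPC pairs only at 27 and neutrophil pairs only at 5 (Zfp773, Zfp575, Zfp146, the second Zfp346 bait and Zfp455). A bait with any HSPC pair had a median of 7, against 4 for all baits of the series, and the number ran between 1 and 64. Zfp322a, a gene of the pluripotency network in mouse embryonic stem cells, had 64, Zfp446 had 49, Zfp324 had 48, and Zfp184 and Zfp954 had 40 each. At the other end, Zfp579, Zfp566, Zfp507, Zfp553, the Zfp646/Zfp668 fragment, the first Zfp346 bait and Zfp366 had 1 pair each. The fragment held another gene besides the Zfp gene at 12 baits, where a contact cannot be given to either gene, and only Zfp genes at 63.

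Zfp baits were paired with other Zfp genes more often than other baits were. The other end held the start or end of another Zfp gene in 98 of the 774 pairs (12.7%), against 5.10% for the 902 pairs of Zfp baits on other chromosomes, 1.64% for other gene-bearing baits on chromosomes 7 and 13, and 0.767% for all pairs. Of these pairs 11 were listed from both ends, which leaves 87 distinct contacts. Any gene boundary was present at the other end of 41.5% of the Zfp pairs and 28.5% of all pairs. These shares were not tested, and a fragment near a tandem cluster has more Zfp genes within reach than one elsewhere.

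**Figure D1:**
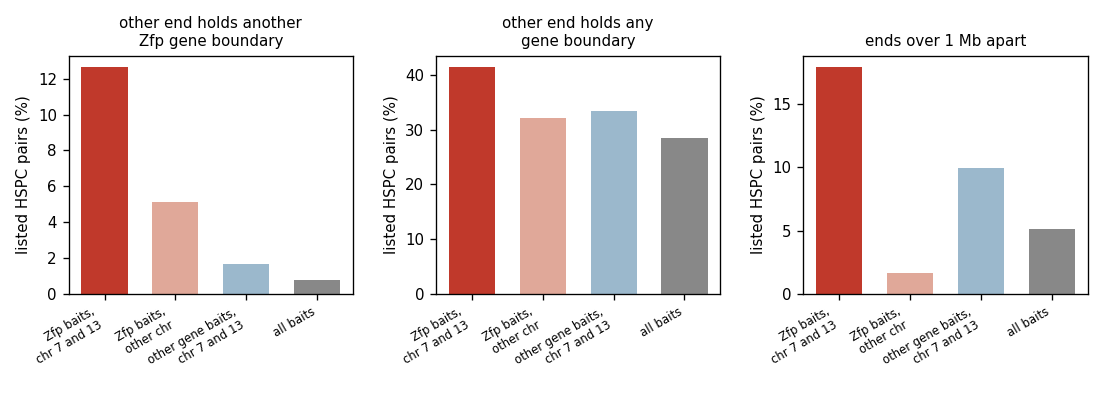
Share of listed HSPC pairs (%, vertical axis of each panel) whose other end holds another Zfp gene boundary, whose other end holds any gene boundary, and whose ends lie over 1 Mb apart, for Zfp baits on chromosomes 7 and 13, Zfp baits on other chromosomes, other gene-bearing baits on chromosomes 7 and 13 and all baits. Each bar is 1 share over all pairs of its set; the Zfp baits of chromosomes 7 and 13 stand at 12.7%, 41.5% and 18.0%.

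Long contacts came mostly from 2 baits. Both ends lay over 1 Mb apart in 18.0% of the Zfp pairs, against 9.96% for other gene-bearing baits on chromosomes 7 and 13 and 5.10% of all pairs, and none joined different chromosomes. Zfp184 and Zfp322a, which lie on chromosome 13 at chr13:21940689-21946098 and chr13:23368248-23369584 beside the main histone gene cluster, gave 81 of these 139 pairs. Without them the share was 8.66%, below that of the other gene-bearing baits on these chromosomes. The pair that joins these baits, 1.43 Mb apart, was listed from both ends. From Zfp184 it scored 4.22 and 7.27 in DM, 5.59 and 6.75 in Flt3-ITD, 10.5 and 23.5 in Npm1c, 12.9 and 9.01 in WT neutrophils, and 9.64 and 8.93 in WT HSPCs. Only the Npm1c replicate 2 library stood far above the rest. From Zfp322a it scored 1.31 and 3.46 in DM, 2.33 and 2.26 in Flt3-ITD, 5.74 and 12.5 in Npm1c, 7.98 and 6.47 in WT neutrophils, and 5.12 and 5.25 in WT HSPCs. There DM and Flt3-ITD lay below both WT HSPC libraries.

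Histone gene fragments were among the other ends of both baits. Zfp184 had 4 such pairs and Zfp322a had 3. The Zfp184 pair with the H2ac10/H3c8/H4c8 fragment, 1.59 Mb away, scored 9.60 and 16.3 in DM, 18.6 and 20.3 in Flt3-ITD, 8.71 and 10.3 in Npm1c, 14.8 and 16.6 in WT neutrophils, and 1.74 and 14.1 in WT HSPCs. The Zfp322a pair with the H2ac11/H4c9 fragment, 1.33 Mb away, scored 14.8 and 16.6 in DM, 10.6 and 7.56 in Flt3-ITD, 13.1 and 18.3 in Npm1c, 12 and 15.6 in WT neutrophils, and 15.0 and 10.1 in WT HSPCs. Every library but WT HSPC replicate 1 at the first pair was above 5, and the groups overlapped at the second.

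The Trim28 gene itself lies beside one of the Zfp clusters on chromosome 7. From 5 baits (Zfp329, Zfp110, Zfp128, Zfp324 and Zfp446), 12 HSPC pairs reached a fragment that overlaps Trim28, over 45.7 to 216 kb. Of these pairs 10 were contacts in DM, 5 in Flt3-ITD, 4 in Npm1c and 10 in WT HSPCs, and 9 pairs from the same baits were neutrophil contacts. By library, 11 and 10 of the 12 were at 5 or more in DM, 9 and 6 in Flt3-ITD, 5 and 8 in Npm1c, and 11 in each WT library. The pair of Zfp446 with the Chmp2a/Trim28/Ube2m fragment scored 9.94 and 11.2 in DM, 8.45 and 4.84 in Flt3-ITD, 3.95 and 9.87 in Npm1c, 17.9 and 10.6 in WT neutrophils, and 12.1 and 7.88 in WT HSPCs. All groups but Flt3-ITD and Npm1c kept both libraries above 5. Zfp110, whose product binds the p75 neurotrophin receptor, had 11.6 and 4.56 in DM, 7.03 and 4.66 in Flt3-ITD, 2.83 and 4.56 in Npm1c, 5.67 and 10.7 in WT neutrophils, and 9.52 and 5.58 in WT HSPCs at the same fragment. No Zfp pair with Trim28 was called in any comparison below.

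The 10 strongest HSPC pairs, by the mean score over the 8 HSPC libraries, began with 2 pairs of Zfp493, the last gene of the chromosome 13 cluster. Its pair with a fragment without a gene 5.79 kb away averaged 30.7 and its pair with Zfp65, 48.9 kb away, averaged 22.3. Zfp715 came next, with 19.5 at Cldnd2/Etfb and 16.8 at Cldnd2/Nkg7, and Zfp329 had 18.1 at Mzf1, a gene for another zinc finger factor named for its myeloid expression. The remaining strong pairs joined Zfp184 with Abt1 (16.2), the first Zfp444 bait with Epn1/U2af2 (15.3), Zfp874a with a fragment in Zfp595 (15.1), Zfp874a with Zfp87 (14.1) and Zfp322a with H2ac11/H4c9 (13.3). The median over all Zfp pairs was 5.29, equal to that of all listed pairs at this rounding.

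Among pairs of Zfp genes with each other, the strongest after Zfp493 with Zfp65 and Zfp874a with Zfp87 was Zfp329 with Zfp128, at a mean of 12.2. The first Zfp444 bait averaged 12 with the Fiz1/Zfp524 fragment, 1.16 Mb away, and 10.7 with Zfp667. At the Fiz1/Zfp524 fragment WT stood alone: the scores were 2.14 and 7.99 in DM, 7.40 and 16.6 in Flt3-ITD, 8.72 and 6.21 in Npm1c, and 26.6 and 20.5 in WT. That pair did not pass the test in any comparison. Zfp715 averaged 11.3 and 10.0 with the fragments of Zfp658/Zfp719 and Zfp658, Zfp874a averaged 9.66 with Zfp65, Zfp84 averaged 9.58 with Zfp27, and Zfp184 averaged 9.55 with Zfp322a.

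By genotype, a smaller share of the Zfp pairs than of all pairs were contacts in DM. Of the 774 pairs, 310 (40.1%) were contacts in DM, 418 (54.0%) in Flt3-ITD, 316 (40.8%) in Npm1c and 288 (37.2%) in WT. Over all listed pairs these shares were 48.8%, 51.2%, 41.8% and 34.9%. By library, 52.7% and 54.1% of the Zfp pairs were at 5 or more in DM, 68.0% and 65.5% in Flt3-ITD, 48.8% and 63.6% in Npm1c, and 53.4% and 50.0% in WT. The Npm1c share without its replicate 1 is that of the other library, 63.6%, close to Flt3-ITD, and without replicate 2 it is 48.8%, below WT. The shares are a description, since a pair had to be a contact of some group to be listed. Contacts of marker genes of blood cell types also differed in number between the genotypes, which was not tested. For the 15 neutrophil markers they numbered 64 in DM, 47 in Flt3-ITD, 42 in Npm1c and 27 in WT of 117 pairs, and for the 7 erythroid markers 15 in DM, 23 in Flt3-ITD, 29 in Npm1c and 29 in WT of 52. For the 6 B cell markers they were 9 in DM, 5 in Flt3-ITD, 2 in Npm1c and 1 in WT of 12, and for the 5 T cell markers 17 in DM, 23 in Flt3-ITD, 19 in Npm1c and 17 in WT of 38. The 12 stem and progenitor markers had 17 in DM, 31 in Flt3-ITD, 22 in Npm1c and 13 in WT of 54. Their part in the Zfp differences was not tested either.

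The clusters differed in this respect. A cluster here is a run of at least 5 Zfp baits with gaps under 1 Mb, and there were 5 on chromosome 7 and 1 on chromosome 13. In the chromosome 13 cluster 34.3% of 108 pairs were contacts in DM, 63.0% in Flt3-ITD, 55.6% in Npm1c and 18.5% in WT. In the cluster of Zfp551, Zfp329, Zfp110, Zfp128, Zfp324 and Zfp446 beside Trim28 52.7% of 150 pairs were contacts in DM, 61.3% in Flt3-ITD, 44.7% in Npm1c and 62.7% in WT. There 49.3% of the pairs were at 5 or more in Npm1c replicate 1 and 76.7% in replicate 2, against 72.7% and 72% in the WT libraries, so that the low place of Npm1c rests on replicate 1. In the cluster from Zfp628 to Zfp580 WT and DM were the high groups, with 39.4% of 71 pairs in DM, 29.6% in Flt3-ITD, 21.1% in Npm1c and 42.3% in WT; by library it was 25.4% and 42.3% in Npm1c, against 66.2% and 49.3% in WT. The clusters from Zfp444 to Zfp418 (97 pairs), from Zfp112 to Zfp526 (88 pairs) and from Zfp553 to the Zfp646/Zfp668 fragment (26 pairs) had 60.8% to 65.4% in Flt3-ITD and 26.9% to 36.4% in WT.

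**Figure D2:**
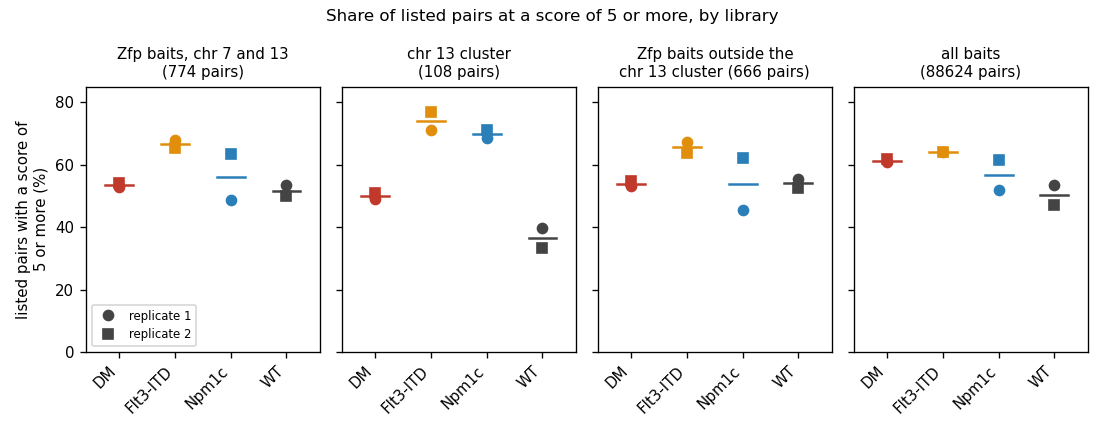
Share of listed HSPC pairs with a score of 5 or more in each library (%, vertical axis) for DM, Flt3-ITD, Npm1c and WT, over the 774 pairs of the Zfp baits, the 108 pairs of the chromosome 13 cluster, the 666 pairs of the other Zfp baits and all 88624 pairs. Points are libraries and lines their mean; in the chromosome 13 cluster the WT libraries lie at 39.8% and 33.3%, below all 6 mutant libraries.

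The chromosome 13 cluster spans chr13:67059690-67781318 (mm10) and holds 12 of the baits, in order Zfp712, Zfp708, Zfp455, Zfp953, Zfp429, Zfp459, Zfp874a, Zfp87, Zfp748, Zfp65, Zfp85 and Zfp493. The same stretch holds Rslcan18, named as a candidate regulator of sex-limited liver expression. All but Zfp455 had HSPC pairs, 108 in all, at a median distance of 391 kb and never beyond 874 kb. Of these pairs 31 (28.7%) ended on another Zfp gene. Zfp65 was reached from 8 baits, Zfp87 from 7 and Zfp712 from 6. Contacts between Zfp genes in the cluster numbered 11 in DM, 24 in Flt3-ITD, 19 in Npm1c and 5 in WT. By library, 21 and 25 of the 31 pairs were at 5 or more in Npm1c, against 15 and 6 in WT.

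Single pairs in the cluster show the pattern. Zfp493 with Zfp65 scored 24 and 19.5 in DM, 28.7 and 32.0 in Flt3-ITD, 21.5 and 34.0 in Npm1c, and 8.55 and 10.2 in WT. Zfp874a with Zfp87 scored 14.1 and 17.4 in DM, 20.6 and 13.8 in Flt3-ITD, 13 and 22.6 in Npm1c, 14.9 and 5.17 in WT neutrophils, and 6.53 and 4.59 in WT HSPCs. At both pairs every mutant library lay above both WT HSPC libraries. The mutants overlapped each other, except that DM lay below Flt3-ITD at Zfp493 with Zfp65. Neither pair passed the test of pairs described below.

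The promoters of the cluster share a short run of letters. RefSeq promoter windows (250 bases before to 50 after the gene start, GRCm38.p6) were available with their start inside 57 of the 75 baits, 65 windows in all. GGGANNTGTAGT or its reverse complement ACTACANNTCCC, searched on both strands, was present in 8 of the 9 windows of the chromosome 13 cluster, in 9 of 56 windows (16.1%) of the other Zfp baits, in 16 of 271 windows (5.90%) of Zfp genes on other chromosomes and in 595 of all 32851 windows (1.81%). The letters resemble the element described for human ZNF143, whose mouse counterpart Zfp143 is itself among the 75 baits. The run was taken as the word of 4 letters, 2 free letters and 6 letters found in most cluster windows, so its count there is fixed by that choice; the cluster genes are related by descent, and a match is not evidence of binding. The matches in the cluster all run with the gene and begin between positions -75 and -16, counted from the gene start; the single window without one is that of Zfp708. A GC box (GGGCGG, both strands) was in 1 of the 9 cluster windows, 30 of 56 windows of other Zfp baits (53.6%) and 35.7% of all windows.

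The stretch of 30 bases around each match is shown for the 8 cluster promoters, with the matching letters in capitals, because they let the shared element be compared between neighbours.
Zfp712: gagaattgtGGGAAATGTAGTctcgtccgc
Zfp455: aagacttctGGGATATGTAGTccaagcaac
Zfp953: ctgatttgtGGGAAATGTAGTccggatgcc
Zfp429: cagacttctGGGAGATGTAGTccgcaccgc
Zfp874a: cagacttgtGGGAAATGTAGTctgcagcac
Zfp748: cagacttgtGGGAAGTGTAGTcttccgttg
Zfp65: ctgatttgtGGGAGATGTAGTcccaacaat
Zfp85: tagacttctGGGAAATGTAGTctctctctc
Compared base by base at fixed positions without gaps, the cluster windows had a median of 77 identical bases of 300 and at most 107, for Zfp712 and Zfp455. The run does not begin at the same position in most of them, so this count cannot show how alike the promoters are. Zfp874a and Zfp748 have the same printed bases before the run, and so do Zfp953 and Zfp65.

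Whole windows are shown for Zfp874a (chr13:67451575-67451874, minus strand), Zfp429 (chr13:67399718-67400017, minus strand) and Zfp112 (chr7:24112070-24112369, plus strand), whose contacts pass the interaction test below. Capitals mark the same letters, which occur 3 times in the Zfp112 window.
Zfp874a: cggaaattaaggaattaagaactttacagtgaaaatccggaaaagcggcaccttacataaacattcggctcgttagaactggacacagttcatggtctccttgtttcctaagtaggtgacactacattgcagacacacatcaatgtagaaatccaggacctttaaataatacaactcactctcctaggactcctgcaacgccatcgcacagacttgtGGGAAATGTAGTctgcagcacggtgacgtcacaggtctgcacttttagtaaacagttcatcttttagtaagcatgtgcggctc
Zfp429: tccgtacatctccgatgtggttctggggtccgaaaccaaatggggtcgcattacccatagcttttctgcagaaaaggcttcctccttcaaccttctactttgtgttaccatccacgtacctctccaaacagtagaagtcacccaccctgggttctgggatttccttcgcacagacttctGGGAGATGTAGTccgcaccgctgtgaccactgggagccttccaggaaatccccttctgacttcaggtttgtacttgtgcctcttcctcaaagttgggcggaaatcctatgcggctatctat
Zfp112: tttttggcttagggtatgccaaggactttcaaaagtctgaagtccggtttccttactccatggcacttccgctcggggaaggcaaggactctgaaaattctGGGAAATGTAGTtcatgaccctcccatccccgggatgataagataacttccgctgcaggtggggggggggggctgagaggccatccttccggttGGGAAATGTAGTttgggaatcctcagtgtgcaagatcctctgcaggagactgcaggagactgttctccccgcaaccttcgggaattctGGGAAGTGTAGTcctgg
Windows were on hand for 7 of the 10 baits that were lower in that test, 5 of them with the run of letters, and for other tested Zfp baits 7 of 40 windows had it. These counts are a description, since the baits were split by their result. The run of letters was also chosen from the cluster windows. Among the lower baits with it, Zfp429, Zfp874a, Zfp65 and Zfp85 lie in that cluster, so their matches were part of the choice. No link between the letters and the interaction can be read from these counts.

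For the tests a bait's level was the mean of log2(score + 1) over its pairs, so a difference of 1 is about a doubling of score plus 1. Each mutant was compared with WT by limma with Benjamini-Hochberg adjustment over all baits, using only pairs that the remaining groups had brought into the list and baits with at least 3 of them. In Npm1c minus WT, none of the 50 Zfp baits tested was called, as none was among all 6318 baits (0% higher, 0% lower). Of the 50, 11 had an unadjusted p under 0.05, and their median difference was 0.15, against 0.13 for all baits. In Flt3-ITD minus WT none of 50 was called and 12 had an unadjusted p under 0.05, while 0.613% of 6198 baits were called higher and 0% lower. The medians were 0.33 for the Zfp baits and 0.24 for all; they were 0.14 and 0.17 without WT replicate 2, 0.22 and 0.24 without Flt3-ITD replicate 1, and 0.04 and -0.03 after quantile normalization, so the order of the medians rests on single libraries. In DM minus WT none of 51 was called and 4 had an unadjusted p under 0.05, beside 2.17% of 5866 baits called higher and 0.443% lower, with medians of 0.05 and 0.10. Without 1 library the Zfp median in DM minus WT ran from 0.06 to 0.10.

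The largest of these uncalled differences lay mostly in the chromosome 13 cluster. In Npm1c minus WT, Zfp874a differed by 1.03 ± 0.28 (SE), Zfp493 and Zfp85 by 0.96 each, Zfp429 by 0.78 and Zfp788 by 0.74, and the lowest baits were Zfp296 (-0.69), Zfp865 (-0.40), the Zfp580/Zfp784/Zfp865 fragment (-0.34), the first Zfp94 bait (-0.27) and Zfp580 (-0.21). In Flt3-ITD minus WT, Zfp874a differed by 1.11 ± 0.31 (adjusted p = 0.0895 by limma), Zfp493 by 0.94, Zfp85 by 0.90, Zfp712 by 0.82 (adjusted p = 0.0673 by limma) and Zfp112 by 0.80. The lowest there were the first Zfp94 bait (-0.28), Zfp296 (-0.23), Zfp658/Zfp719 (-0.17), Zfp324 (-0.16) and Zfp941 (-0.11). In DM minus WT the highest were Zfp712 (0.90), Zfp953 (0.74), Zfp874a (0.60), Zfp85 (0.59) and Zfp865 (0.54), and the lowest were Zfp329 (-0.87, adjusted p = 0.071 by limma), Zfp708 (-0.59), the first Zfp628 bait (-0.56), Zfp418 (-0.39) and the second Zfp444 bait (-0.23).

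Over the cluster as a whole, 8 of the 9 tested baits lay above 0 in Npm1c minus WT, with a median of 0.63, 9 of 9 in Flt3-ITD minus WT, with a median of 0.76, and 8 of 10 in DM minus WT, with a median of 0.36. Zfp baits outside the cluster had medians of 0.10, 0.15 and 0.04. These comparisons share the WT libraries. Quantile normalization moved the median of all baits to -0.01 in Npm1c minus WT, -0.03 in Flt3-ITD minus WT and -0.08 in DM minus WT, where the cluster medians were 0.46, 0.48 and 0.11 and the median of all Zfp baits turned to -0.12 in DM minus WT. Without Npm1c replicate 1 the median in Npm1c minus WT was 0.31 for the Zfp baits and 0.66 for the cluster, and without Npm1c replicate 2 it was -0.01 and 0.60; after quantile normalization the Zfp median was 0.03. For Zfp493, with 10 such pairs in the Npm1c comparison, the level was 3.44 and 3.98 in Npm1c and 2.81 and 2.68 in WT. For Zfp874a, with 9, it was 3.45 and 3.71 in Npm1c and 2.91 and 2.18 in WT. In both, the libraries of the pair of groups did not overlap.

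Without WT replicate 1, 4 Zfp baits were called higher in Flt3-ITD (Zfp874a, Zfp85, Zfp112 and the second Zfp94 bait) and 1 in DM (Zfp85). Over all baits 448 of 6198 (7.23%) and 388 of 5866 (6.61%) were then called, against 8% and 1.96% of the Zfp baits. Restricting the test to baits with at least 5 pairs called Zfp712 higher in Flt3-ITD, 1 of 35 Zfp baits where 2.79% of all were called, and at least 10 pairs called Zfp493, 1 of 13 where 8.77% of all were called. These shares lie near or below those of all baits.

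DM was also set against each single mutant, comparisons added after the data had been seen. In DM minus Npm1c none of 48 Zfp baits was called and 7 had an unadjusted p under 0.05, where 0.0351% of 5705 baits were called higher and 0.175% lower. Zfp329 (-0.76), Zfp322a (-0.75), Zfp429 (-0.72), Zfp28/Zfp78 (-0.69) and Zfp493 (-0.62) were the lowest, and Zfp712 (1.06), Zfp296 (0.59), Zfp865 (0.56), Zfp110 (0.37) and the first Zfp94 bait (0.36) the highest. In DM minus Flt3-ITD none of 45 was called and 13 had an unadjusted p under 0.05, where 0% of 5251 baits were called higher and 0.19% lower. The lowest were the first Zfp628 bait (-0.94), Zfp667 (-0.76), Zfp429 (-0.73), Zfp369 (-0.71) and Zfp493 (-0.68), and the highest, all within 1 SE of 0, were Zfp953 (0.19), Zfp658/Zfp719 (0.18), Zfp580 (0.17), the first Zfp94 bait (0.14) and the first Zfp444 bait (0.07). Without Npm1c replicate 1, Zfp322a was called lower in DM than in Npm1c (2.08% of the Zfp baits, beside 0.841% of all), and without Npm1c replicate 2, Zfp712 and Zfp865 were called higher (4.17%, beside 2.17%).

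At 10 Zfp baits the DM level fell short of what the single-mutant differences add up to, and at 1 it exceeded it. The interaction, which takes both single-mutant levels from the sum of the DM and WT levels, is 0 where DM differs from WT by the sum of the single-mutant differences. Of 56 Zfp baits tested, 10 were called lower and 1 higher by limma with Benjamini-Hochberg adjustment, beside 4.62% of 7678 baits called lower and 0.482% higher. The median was -0.41 for the Zfp baits and -0.17 for all baits. Of the 10 lower baits 7 lay in the chromosome 13 cluster, where all 10 tested baits were below 0, with a median of -1.26. After quantile normalization 8 were called lower and 3 higher (Zfp941, Zfp865 and the Zfp580/Zfp784/Zfp865 fragment), beside 6.03% of all baits called in either direction.

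Zfp418, on chromosome 7 at chr7:7167227-7171979, had levels of 1.33 and 1.12 in DM, 2.93 and 2.96 in Flt3-ITD, 1.80 and 2.18 in Npm1c, and 1.59 and 1.65 in WT over 7 pairs. The DM libraries were the lowest of all and the Flt3-ITD libraries the highest. Its interaction was -2.09 ± 0.27 (SE, adjusted p = 0.0074 by limma). Of its pairs, 0 were contacts in DM, 6 in Flt3-ITD, 2 in Npm1c and 1 in WT, so that most were listed through the group in which the bait is high, and it had no neutrophil pair.

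In the cluster, Zfp493 had levels of 2.95 and 2.68 in DM, 3.26 and 3.75 in Flt3-ITD, 3.34 and 3.93 in Npm1c, and 2.58 and 2.52 in WT, with an interaction of -1.78 ± 0.32 (adjusted p = 0.02 by limma). Zfp429 had 2.65 and 2.33 in DM, 3.09 and 3.33 in Flt3-ITD, 3.25 and 3.09 in Npm1c, and 2.41 and 2.50 in WT, with -1.45 ± 0.27 (adjusted p = 0.021). At both baits the single-mutant libraries lay above all DM and WT libraries. All 8 pairs of Zfp429 were contacts in Npm1c and 6 in Flt3-ITD, against 1 in DM and 1 in WT. They were thus listed mostly through the groups in which Zfp429 is high, and its call is no independent sign of a difference. The 14 pairs of Zfp493 were listed more evenly, with 7 contacts in DM, 10 in Flt3-ITD, 9 in Npm1c and 6 in WT. Zfp874a had 3.17 and 2.62 in DM, 3.16 and 3.77 in Flt3-ITD, 3.38 and 3.67 in Npm1c, and 2.62 and 1.96 in WT, with -1.80 ± 0.40 (adjusted p = 0.0334). Here DM replicate 1 reached the lower Flt3-ITD library. Of the 10 pairs of Zfp874a, 6 were contacts in DM, 8 in Flt3-ITD, 9 in Npm1c and 1 in WT.

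Zfp85 had 2.04 and 1.99 in DM, 2.70 and 2.84 in Flt3-ITD, 2.31 and 2.65 in Npm1c, and 1.96 and 1.19 in WT, with -1.66 ± 0.34 (adjusted p = 0.0267 by limma). Zfp87 had 2.09 and 2.28 in DM, 2.90 and 2.81 in Flt3-ITD, 2.40 and 2.60 in Npm1c, and 2.16 and 2.02 in WT, with -1.08 ± 0.22. Both again had every single-mutant library above DM and WT. Of the 10 pairs of Zfp85, 2 were contacts in DM, 6 in Flt3-ITD, 5 in Npm1c and 2 in WT. Of the 15 pairs of Zfp87, 1 was a contact in DM, 13 in Flt3-ITD, 3 in Npm1c and 1 in WT. Zfp65, with 24 pairs, had 2.08 and 2.24 in DM, 2.77 and 2.69 in Flt3-ITD, 2.78 and 2.52 in Npm1c, and 2.15 and 2.32 in WT, with -0.99 ± 0.22. Zfp459, with 3 pairs, had 1.12 and 2.04 in DM, 2.10 and 2.20 in Flt3-ITD, 2.37 and 2.54 in Npm1c, and 0.91 and 1.41 in WT, with -1.87 ± 0.45. The DM libraries of Zfp459 were nearly 1 unit apart, the widest pair of the 4 groups. Contacts among the 24 pairs of Zfp65 numbered 6 in DM, 13 in Flt3-ITD, 12 in Npm1c and 4 in WT. Among the 3 pairs of Zfp459 they numbered 0 in DM, 1 in Flt3-ITD, 2 in Npm1c and 0 in WT. The pairs of Zfp85, Zfp87, Zfp65 and Zfp459 were thus listed more through the single mutants, and their calls are no independent sign of a difference. The 3 cluster baits that were not called follow other orders. Zfp712 had 2.49 and 2.72 in DM, 2.38 and 2.71 in Flt3-ITD, 2.04 and 2.32 in Npm1c, and 1.68 and 1.75 in WT, so that WT was below every mutant library. Zfp953 had 2.81 and 2.88 in DM, 2.16 and 2.95 in Flt3-ITD, 2.86 and 2.79 in Npm1c, and 2.33 and 1.83 in WT. Zfp708 had 2.59 and 2.41 in DM, 3.24 and 2.74 in Flt3-ITD, 2.84 and 2.98 in Npm1c, and 3.24 and 3.04 in WT, with DM the lowest group.

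**Figure D3:**
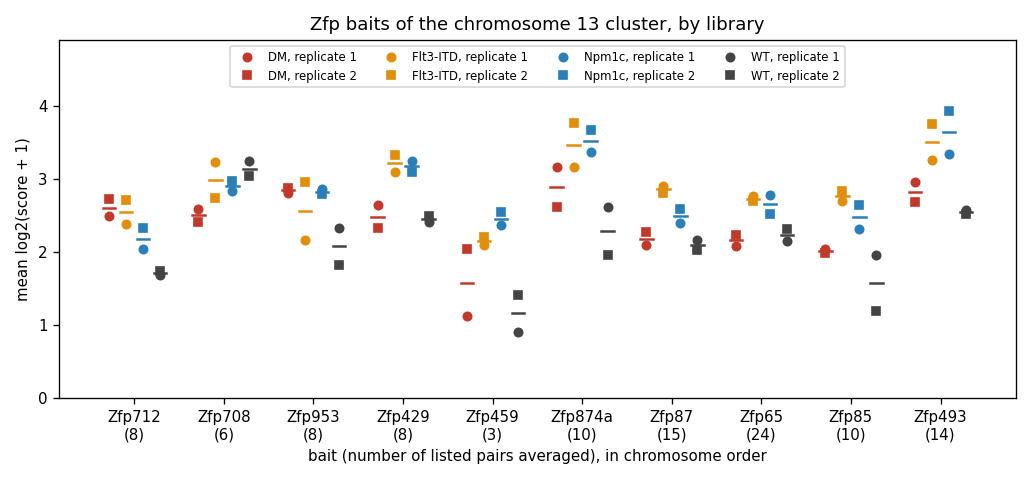
Level of the 10 chromosome 13 cluster baits with at least 3 HSPC pairs (mean log2(score + 1) over all listed pairs of the bait, vertical axis), in chromosome order, for DM, Flt3-ITD, Npm1c and WT. Points are libraries and short lines their mean; at Zfp429, Zfp87, Zfp65, Zfp85 and Zfp493 all Flt3-ITD and Npm1c points lie above the DM and WT points.

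Outside the cluster, Zfp322a, with 64 pairs, had 1.84 in both DM libraries, 2.63 and 2.60 in Flt3-ITD, 2.41 and 3.12 in Npm1c, and 2.25 and 2.10 in WT, with an interaction of -1.37 ± 0.30 (adjusted p = 0.032 by limma). DM was the lowest group. Zfp112 had 2.49 and 2.41 in DM, 2.87 and 3.08 in Flt3-ITD, 2.44 and 2.70 in Npm1c, and 2.14 and 1.85 in WT, with -1.10 ± 0.25. Here WT was the lowest group, and DM overlapped Npm1c. Of the 64 pairs of Zfp322a, 11 were contacts in DM, 27 in Flt3-ITD, 32 in Npm1c and 22 in WT. Of the 11 pairs of Zfp112, 5 were contacts in DM, 9 in Flt3-ITD, 5 in Npm1c and 2 in WT. Zfp322a was thus listed least through DM and Zfp112 most through Flt3-ITD, and their calls are no independent sign of a difference. Zfp941 was the bait that was higher, with 2.98 and 3.14 in DM, 1.74 and 2.02 in Flt3-ITD, 1.98 and 1.73 in Npm1c, and 2.14 and 1.86 in WT, and an interaction of 1.32 ± 0.27 (adjusted p = 0.0267 by limma). All 9 of its pairs were contacts in DM, 1 also in WT and 0 in the single mutants, so DM was bound to be high at this bait by the way its pairs were listed, and the call is no independent sign of a difference. The next highest were Zfp865 (0.98), the Zfp580/Zfp784/Zfp865 fragment (0.68), the second Zfp628 bait (0.57) and Zfp658 (0.55), none of them called.

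No group lies outside this contrast, so all listed pairs were used and their selection was not removed: a pair listed for a single mutant pulls the interaction down. The number of calls changed strongly with the library left out. The median over the Zfp baits then ran from -0.53 without Npm1c replicate 1 to -0.31 without Npm1c replicate 2. An alternative chosen after the data had been seen took only pairs also in the neutrophil list. There none of 13 Zfp baits and 4 of 1539 baits were called, with 3 of the 13 at an unadjusted p under 0.05. Those pairs are in the HSPC list too, each a contact of at least 1 HSPC group. Selection by genotype was therefore not removed there either. The alternatives that could test Zfp418 keep the same listing of its pairs. The cluster median lay between -1.30 and -1.18 when any single library was left out, and at -1.05 after quantile normalization, which moved the median of all baits to 0.04. These settings use the same listed pairs, so a steady cluster median says nothing about their selection.

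**Figure D4:**
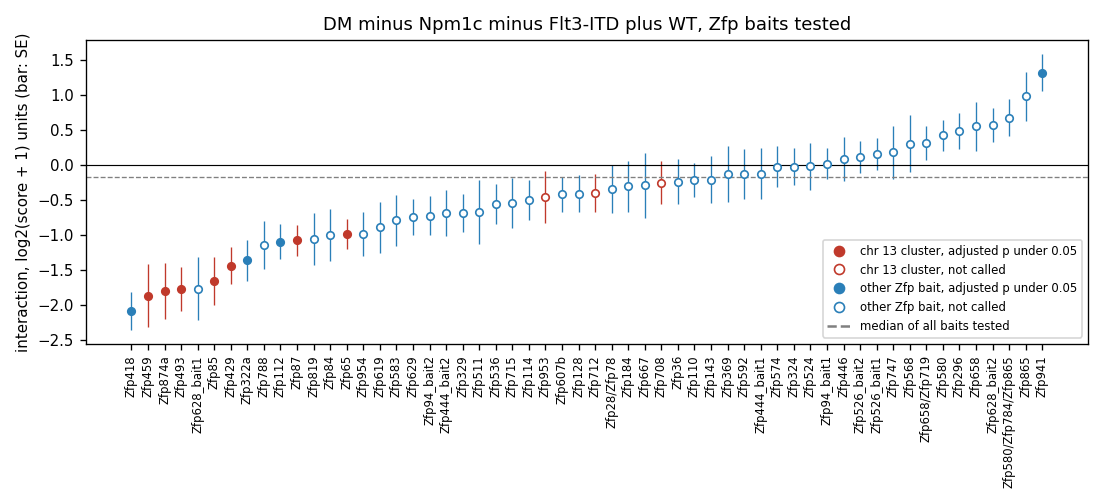
Interaction (DM plus WT less both single mutants, in log2(score + 1) units, vertical axis; bars are SE) of the 56 tested Zfp baits in rank order, with the chromosome 13 cluster in red and other Zfp baits in blue. Filled points have an adjusted p under 0.05; 7 of the 10 filled points at the low end belong to the cluster, and Zfp941 is alone at the high end.

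Single pairs were tested over all 88421 listed HSPC pairs with both ends on autosomes or X. Against WT, 3 Zfp pairs were higher and 2 lower in Npm1c (0.225% and 0.0848% of all pairs), 8 higher and 3 lower in Flt3-ITD (0.477% and 0.0905%), and 4 higher and 4 lower in DM (0.42% and 0.156%), of 774 tested each time. In the interaction 4 were higher and 7 lower (0.145% and 0.42%). Together these are 20 pairs of 17 baits, 13 of them over 1 Mb and 13 listed at 0 in both libraries of at least 1 group. Beside a group at 0 the scores are given without a fold. None of the calls against WT was kept over pairs that other groups brought in, and leaving out any library of a comparison ended all of them; in the interaction 1 call was left without Npm1c replicate 1 and 0 otherwise.

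In the chromosome 13 cluster, Zfp953 with Zfp65 scored 11.8 and 10.1 in DM, 8.66 and 9.42 in Flt3-ITD, 16.7 and 13 in Npm1c, 10.9 and 8.51 in WT neutrophils, and 2.26 and 3.05 in WT HSPCs, and was higher in Npm1c than in WT (2.12 ± 0.31 on the log2(score + 1) scale, adjusted p = 0.0446 by limma). Zfp493 with Zfp85, 23.0 kb apart, scored 4.51 and 5.25 in DM, 10.8 and 9.92 in Flt3-ITD, 4.81 and 5.37 in Npm1c, and 1.37 and 1.81 in WT, and was higher in Flt3-ITD (2.14 ± 0.30, adjusted p = 0.027). In both, all mutant libraries lay above WT. Zfp429 with Zfp87 scored 5.28 and 3.69 in DM, 15.2 and 14.2 in Flt3-ITD, 9.94 and 10.8 in Npm1c, and 4.19 and 3.61 in WT, with an interaction of -2.74 ± 0.43. Zfp65 with a fragment in Zfp459 scored 0.15 and 0.23 in DM, 2.59 and 4.42 in Flt3-ITD, 6.46 and 5.32 in Npm1c, and 5.21 and 4.60 in WT, and was lower in DM (-2.32 ± 0.33, adjusted p = 0.0313 by limma).

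Zfp184 and Zfp322a had 3 called pairs, all with fragments without a gene. Zfp184, 1.51 Mb away, scored 5.76 and 18.9 in DM, 14.3 and 12.7 in Flt3-ITD and 5.02 and 2.33 in Npm1c, was listed at 0 in both WT libraries, and was called in Flt3-ITD and DM. Zfp322a, 1.64 Mb away, was listed at 0 in both DM libraries, with 4.22 and 1.56 in Flt3-ITD, 8.59 and 6.04 in Npm1c, and 7.60 and 5.56 in WT, and was called lower in DM. Zfp322a, 1.96 Mb away, was at 0 in DM, with 9.34 and 15.7 in Flt3-ITD, 6.95 and 6.40 in Npm1c, and 3.19 and 0.89 in WT, and was lower in the interaction. The DM libraries were thus at 0 in both Zfp322a pairs and above both WT libraries in the Zfp184 pair.

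Of the pairs called in all 3 comparisons with WT, 2 on chromosome 7 are described. Zfp954 with a fragment without a gene 713 kb away scored 9.83 and 7.24 in DM, 5.84 and 10.2 in Flt3-ITD, 6.76 and 6.93 in Npm1c, and 0.49 and 0.21 in WT. The second Zfp628 bait, which also holds Nat14, scored 5.95 and 5.00 with Leng1 in WT and was listed at 0 in all 6 mutant libraries.

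The remaining pairs were listed at 0 in both libraries of 1 to 3 groups, except the last 2. Zfp568, which in mouse embryos represses the placental form of Igf2, scored 10.9 and 9.08 in DM with a fragment in Prx, and no other library exceeded 0.56. In Npm1c Zfp788 scored 5.94 and 12.2 with a fragment in Gm33989 and was at 0 elsewhere. Of the 18 called pairs described, 11 were contacts of a single genotype. Such a pair entered the list only through that genotype. Where its call involves that genotype, the call follows from the listing and supports no difference by itself. The exception is Zfp65 with the fragment in Zfp459, listed through Npm1c and called in DM minus WT. That call was not kept when only pairs brought in by other groups were tested.

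In Flt3-ITD, Zfp128 scored 9.00 and 7.54 with a fragment in Clcn4, the first Zfp94 bait 7.14 and 5.40 with Cyp2t4/Egln2, Zfp583 6.22 and 10.0 with a fragment 6.50 Mb away, and Zfp954 5.67 and 9.48 with Hif3a, 9.94 Mb away; elsewhere these pairs did not exceed 1.05. Zfp583 with a fragment in Clcn4 was at 0 in Flt3-ITD, with 3.92 and 2.26 in DM, 5.81 and 3.23 in Npm1c, and 11.0 and 8.45 in WT. The first Zfp444 bait with Sbk2/Sbk3 scored 4.66 and 5.42 in DM, 10.7 and 7.25 in Flt3-ITD, 0 and 2.07 in Npm1c, and 0.02 and 0 in WT. Zfp28/Zfp78 with Zfp954 scored 1.38 and 0.20 in DM, 6.88 and 6.69 in Flt3-ITD, 7.75 and 11.9 in Npm1c, and 3.17 and 1.57 in WT, with an interaction of -3.90 ± 0.62 (adjusted p = 0.0453 by limma).

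**Figure D5:**
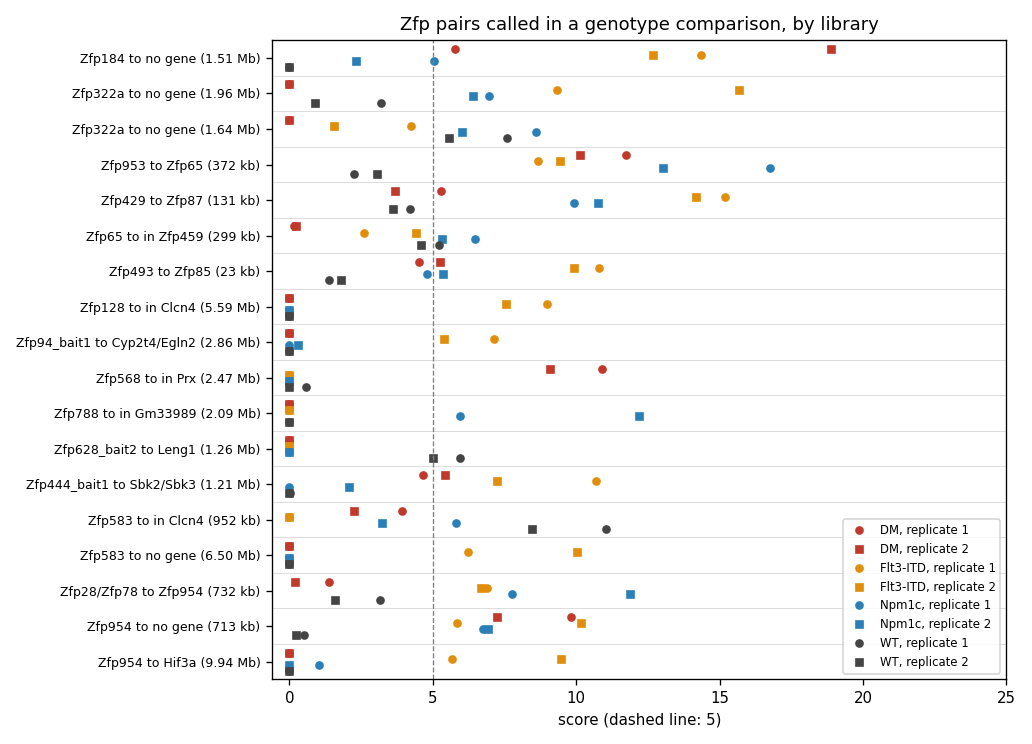
Scores (horizontal axis) of 18 of the 20 Zfp pairs with an adjusted p under 0.05 in a genotype comparison, 1 row per pair with the distance between its ends, for DM, Flt3-ITD, Npm1c and WT. Points are libraries, circles replicate 1 and squares replicate 2, and the dashed line marks 5; 11 of the rows have a group with both points at 0.

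Zfp contacts of neutrophils were concentrated beside Trim28, where WT HSPCs also had many. Zfp446 had 40 neutrophil pairs, Zfp128 had 20 and Zfp324 had 16, together 39.0% of the 195, while the chromosome 13 cluster had 18 (9.23%). Of the 288 WT HSPC contacts, Zfp446 had 30, Zfp128 had 13, Zfp324 had 36 and the chromosome 13 cluster had 20. Of the neutrophil pairs 126 were also in the HSPC list, which is 64.6% of the neutrophil and 16.3% of the HSPC pairs of the Zfp baits; for the whole series these shares were 55.0% and 15.9%. The chromosome 13 contacts seen in neutrophils included Zfp953 with Zfp87 and Zfp65, Zfp708 with Zfp65, and Zfp874a with Zfp87.

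Among the 10 strongest neutrophil pairs, the first was the second Zfp444 bait with a fragment 69.1 kb away, at 15.1 and 22.0 in neutrophils and 6.43 and 6.35 in WT HSPCs. Zfp446 scored 16.9 and 12 in neutrophils and 9.92 and 9.76 in WT HSPCs with one of its Mzf1 fragments, and 16.7 and 11.2 in neutrophils and 8.57 and 8.91 in WT HSPCs with Zfp128, and its pair with Chmp2a/Trim28/Ube2m was also among them. The 3 histone gene fragments among them belonged to Zfp184 (H2ac10/H3c8/H4c8, and H2ac8 at 17.2 and 11.4, a pair absent from the HSPC list) and Zfp322a (H2ac11/H4c9). Zfp110 with Mzf1 scored 11.3 and 17.4 in neutrophils and 8.08 and 11.5 in WT HSPCs, and Zfp493 with its fragment 5.79 kb away scored 17 and 10.5 in neutrophils and 21.2 and 19 in WT HSPCs.

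WT neutrophils were compared with WT HSPCs over pairs that were contacts in both, which leaves 6 Zfp baits with 3 or more. None was called by limma and 1 had an unadjusted p under 0.05, beside 2.17% of 874 baits called higher and 1.26% lower. Zfp324 had levels of 3.03 and 3.01 in neutrophils and 3.42 and 3.35 in WT HSPCs (-0.36 ± 0.14, adjusted p = 0.145), and Zfp446 had 3.50 and 3.32 in neutrophils and 3.09 and 3.18 in WT HSPCs (0.28 ± 0.14). The other baits were Zfp110 (0.22), Zfp128 (0.16), Zfp329 (0.01) and Zfp322a (-0.01). In the test of pairs, 0 of 126 shared Zfp pairs were called and 15 had an unadjusted p under 0.05, beside 0.206% higher and 0% lower of 14051; without WT HSPC replicate 1, 6 were called higher (4.76%, beside 4.43% of all pairs), and without replicate 2, 1 was (0.794%, beside 0.534%).

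Genes of the KRAB co-repressor machinery (Trim28, Setdb1, HP1, histone deacetylase and related genes, 25 in all) were looked up beside the Zfp genes. Of these 19 had a HSPC bait, with 107 contacts in DM, 116 in Flt3-ITD, 102 in Npm1c and 108 in WT of 213 pairs. In the promoter tests none of 15 baits was called in Npm1c minus WT and none of 12 in Flt3-ITD minus WT (1 and 2 at an unadjusted p under 0.05). Hdac2, a histone deacetylase, was the 1 bait of 13 called higher in DM minus WT (1.23 ± 0.21, adjusted p = 0.0322 by limma), beside 2.17% of all baits. It was also the 1 of 18 called lower in the interaction (-1.97 ± 0.28), beside 4.62% of all baits. Of its 5 pairs, 1 was a contact in DM, 4 in Flt3-ITD, 0 in Npm1c and 0 in WT. Most were thus listed through Flt3-ITD, and the interaction call is no independent sign of a difference. The median interaction of the 18 baits was -0.03. Zfp baits on other chromosomes had 0 higher and 4 lower calls of 76 in the interaction, with a median of -0.15, and 2 higher of 57 in DM minus WT.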

How the data were processed

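Promoter contacts were scored in 8 HSPC and 2 neutrophil libraries. The interaction scores were used as the authors deposited them, 1 per pair and library; what the score is relative to, the aligner and the caller are not given in the sources used here, and the genome build is mm10, per the submitters' processing notes. Depth is unknown, so no counting interval is given, and only 2 libraries per group limit the precision. Genes were placed on fragments with a RefSeq gene table of the same build.

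Scores were taken as log2(score + 1). The promoter tests averaged a bait's pairs (at least 3) and the pair tests took each pair alone; both used limma 3.58.1 in R 4.3.3, two-sided, with Benjamini-Hochberg adjustment at 0.05 over all baits or pairs and, for baits, a prior variance trended on the number of pairs. Both were tested on simulated data. Named were all called baits and pairs, the 5 largest differences each way per comparison, the 5 baits with most pairs and the 10 strongest pairs of each kind. Of these, 2 called pairs and 1 of the strongest neutrophil pairs are not reported here. The members and lists were chosen with earlier results of these data known. Alternatives changed the normalization, pseudocount, filters, pairs averaged, replicate block and libraries. Samples came from separate biological replicates per the labels.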

Additional observations from a re-analysis of the deposited data

Results flagged for a closer look

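The double-mutant difference departed from the sum of the single-mutant differences, by limma's interaction test with Benjamini-Hochberg adjustment, at 11 Zfp baits. On the log2(score + 1) scale the interaction was -2.09 at Zfp418, -1.78 at Zfp493, -1.45 at Zfp429, -1.08 at Zfp87, 1.32 at Zfp941, -1.66 at Zfp85, -1.37 at Zfp322a, -0.99 at Zfp65, -1.80 at Zfp874a, -1.10 at Zfp112 and -1.87 at Zfp459. The selection of pairs into the list was not removed in this contrast: all 9 pairs of Zfp941 were listed through DM, and 6 of the 7 pairs of Zfp418 through Flt3-ITD. Cluster baits were affected too. All 8 pairs of Zfp429 and 9 of the 10 of Zfp874a were contacts in Npm1c, and 13 of the 15 of Zfp87 in Flt3-ITD. Zfp459 had 0 contacts in DM and 0 in WT. Outside the cluster, 9 of the 11 pairs of Zfp112 were contacts in Flt3-ITD. Zfp322a had 32 contacts in Npm1c and 11 in DM, of 64 pairs. Zfp493 was listed more evenly, with 7 of 14 in DM, 10 in Flt3-ITD, 9 in Npm1c and 6 in WT.

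Single pairs departed in the same way at 9 places described here. The interaction was -5.16 for Zfp322a with a fragment without a gene 1.96 Mb away, -2.74 for Zfp429 with Zfp87, -3.21 for Zfp128 with a fragment in Clcn4, -3.05 for the first Zfp94 bait with Cyp2t4/Egln2 and 3.78 for Zfp568 with a fragment in Prx. It was -3.26 for Zfp788 with a fragment in Gm33989, 2.69 for the second Zfp628 bait with Leng1, -3.16 for Zfp583 with a fragment without a gene 6.50 Mb away and -3.90 for Zfp28/Zfp78 with Zfp954. Of these 9 pairs 6 were contacts of a single genotype, which alone brought them into the list. A group at 0 enters these values through the pseudocount, so their size depends on it.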

How the results depend on the processing

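No called Zfp bait or pair changed direction under the alternatives run, but medians over the Zfp baits or pairs did. After quantile normalization the promoter median was -0.12 in DM minus WT and -0.15 for neutrophils, and the pair median -0.02 in Npm1c minus WT, -0.12 in DM minus WT and -0.04 for neutrophils, against 0.05, 0.08, 0.11, 0.06 and 0.25 before it. Without Npm1c replicate 2 the promoter median was -0.01 in Npm1c minus WT and 0.05 in DM minus Npm1c (-0.14 with it), and the pair median in Npm1c minus WT was 0. Over all listed pairs the DM minus Npm1c median was 0.0034, and with at least 1 pair per bait the neutrophil median was -0.0099. In the promoter tests, counts of called Zfp baits moved as follows. For Flt3-ITD minus WT (0) they were 1 with at least 5 pairs per bait, 1 with at least 10 and 8 over all listed pairs (14.3%, beside 5.91% of all baits), and 0 to 4 when 1 library was left out. For DM minus WT (0) they were 1 after quantile normalization (Zfp329; 1.96%, beside 2.97% of all baits), 5 over all listed pairs (8.93%, beside 17.1%), and 0 to 1 without 1 library. For the interaction (11) they were 7 with at least 10 pairs, 3 with a pseudocount of 0.1, 6 without the variance trend, 0 over pairs also in the neutrophil list, and 1 to 14 without 1 library. For DM minus Npm1c (0) they were 7 over all listed pairs (12.5%, beside 13.8%) and 0 to 2 without 1 library, for DM minus Flt3-ITD (0) 2 over all listed pairs (3.57%, beside 1.99%), and for WT neutrophils minus WT HSPCs (0) 1 after quantile normalization (Zfp324; 1 of 6, beside 16.7% of all baits).

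In the pair tests, a mean score of at least 3 left 0 of 5 calls in Npm1c minus WT, 2 of 11 in Flt3-ITD minus WT, 1 of 8 in DM minus WT and 1 of 11 in the interaction. Of all pairs 0.00587%, 0.115%, 0.0329% and 0.0329% were called there. Pairs brought in by other groups left 0 in each comparison with WT, where pairs that were contacts only of the groups compared were not tested. Quantile normalization gave 3 in Npm1c minus WT (0.388%, beside 0.28% of all pairs). A pseudocount of 0.1 gave 13 in DM minus WT (1.68%, beside 0.537%). Without 1 library few or no calls were left in the genotype comparisons, among the Zfp pairs and among all pairs. The count for neutrophils moved with the library left out.

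Replicate numbers did not pair the samples: the correlation of deviations of same-numbered libraries ran from -0.012 to 0.061. With the replicate number as a block the pair tests gave 3 calls in Npm1c minus WT (0.388%, beside 0.217% of all pairs) and 7 in Flt3-ITD minus WT (0.904%, beside 0.389%). In the interaction they gave 0 (beside 0.00679%), and the promoter test gave 10 (17.9%, beside 4.08% of all baits).

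Contacts depended on the threshold. At 3 they were 510 in DM, 610 in Flt3-ITD, 511 in Npm1c and 472 in WT, and at 10 they were 25 in DM, 42 in Flt3-ITD, 31 in Npm1c and 19 in WT. From 1 library alone they were 408 to 419 in DM, 507 to 526 in Flt3-ITD, 378 to 492 in Npm1c and 387 to 413 in WT. The causes were not tested.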
